A study of Mus musculus with 2 samples.

Results

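The genes described here serve ion, water and calcium transport in the surface epithelium of the mouse colon, and their RNA was counted cell by cell in droplets. They are the aquaporins Aqp8 and Aqp4, the carbonic anhydrases Car1, Car2 and Car4, the chloride and bicarbonate exchanger Slc26a3, the sodium, potassium and chloride cotransporter Slc12a2, the chloride channel Cftr and the calcium-binding protein S100g. All 9 of 9 symbols were found, each on 1 row, among the 31053 genes listed in both count matrices, and they were chosen by name. Their Ensembl identifiers there are ENSMUSG00000030762 (Aqp8), ENSMUSG00000024411 (Aqp4), ENSMUSG00000027556 (Car1), ENSMUSG00000027562 (Car2), ENSMUSG00000000805 (Car4), ENSMUSG00000001225 (Slc26a3), ENSMUSG00000024597 (Slc12a2), ENSMUSG00000041301 (Cftr) and ENSMUSG00000040808 (S100g). One library held colon cells of wild-type C57BL/6 mice given Δ9-tetrahydrocannabinol (THC, the main psychoactive compound of cannabis) at 10 mg/kg. The other library held colon cells of wild-type C57BL/6 mice given the vehicle. EDTA loosened the epithelium, an enzyme step (collagenase D, Dispase and DNAse) followed, and a Percoll gradient enriched the lamina propria, so the epithelial cells are those that this preparation kept. How many mice made a library, their sex and age, and how often they were dosed was not given in the sources used here.

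At its surface the colon takes up sodium, chloride and water from the gut contents. Slc26a3, named DRA for "down-regulated in adenoma", exchanges luminal chloride for bicarbonate at the apical membrane. The carbonic anhydrases Car1 and Car2 supply bicarbonate inside the cell, and Car4 sits on the outer face of the apical membrane. Crypt cells secrete chloride, which enters through Slc12a2 (NKCC1) at the basolateral side and leaves through Cftr at the apical side. Aqp8 and Aqp4 are water channels, and S100g (calbindin-D9k) carries calcium through the cytosol of absorptive cells and is a classical vitamin D target.

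The counts are unique molecular identifiers (UMIs), each standing for 1 captured RNA molecule. Barcodes were used as cells when they held at least 1000 UMIs, at least 200 genes and under 15% mitochondrial UMIs, which left 436 THC and 703 vehicle cells with a median of 9072.5 (THC) and 7539.0 (vehicle) UMIs. Epithelial cells, recognised by pan-epithelial markers such as Epcam and Krt8, numbered 160 (36.7%) in the THC library and 250 (35.6%) in the vehicle library, and held 2711751 UMIs (THC) and 3249050 UMIs (vehicle). Their median depth was 17308.5 UMIs in the THC library and 12983.0 in the vehicle library, and no cell barcode was shared by the libraries. Levels are given as CPM, the UMIs of a gene per 1000000 UMIs of the same cells. The mitochondrial limit removed 192 of 628 THC and 208 of 911 vehicle barcodes, whose values are given after the main comparison because they matter for several of the genes. With 1 library for each treatment there is no replicate, so no test between treatments was possible; the 95% intervals below cover counting error only, and a difference between the libraries cannot be told apart from a difference between these preparations.

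The epithelial cells were clustered without the 9 genes and without the other transport genes described below, so that a cluster's level of a transport gene was not set by that gene. Cells of 3 clusters carried colonocyte markers and are called colonocyte-like, 50 in the THC library and 57 in the vehicle library. The first of these was led by Krt20, 1810065E05Rik, Cyp2c55, 2200002D01Rik and Phgr1 (7 THC and 10 vehicle cells), and 14 of the 15 colonocyte markers on the list counted for it, Krt20 being a keratin of the most mature surface cells. The second was led by genes that include Dmbt1, Cyp2c55, 1810065E05Rik and Lgals3 (19 THC and 18 vehicle cells). The third was led by Muc3, Lypd8, Tgm3, Sycn and Ckmt1 (24 THC and 29 vehicle cells), with 5 colonocyte markers beside the goblet markers Clca1 and Zg16. A crypt-like cluster of dividing cells was led by Hmgb2, Tubb5, Ube2c, Ptma and H2afz (22 THC and 20 vehicle cells); fewer than 3 of the 10 pan-epithelial markers were seen in 0 of its THC and 5 of its vehicle cells, and without those cells the count of genes higher in colonocyte-like cells, given next, was again 6. Goblet-like cells formed 2 clusters, led by Spink4, Reg4, Agr2, Tff3 and Muc2 (15 THC and 26 vehicle cells) and by Muc2, Agr2, Ccl6, Spink4 and Klk1 (30 THC and 49 vehicle cells). Enteroendocrine-like cells, led by Chgb, Chga, Tph1, Krt20 and Krt8, numbered 5 in the THC library and 4 in the vehicle library. Clusters without enough markers stayed unnamed: one led by Gpx2, Hspe1, Sult1a1, Ptma and Aldh1b1 (19 THC and 40 vehicle cells), one led by Adh1, Muc3, Wfdc2, Hoxb13 and Gpx2 (14 THC and 11 vehicle cells), and a shallow one led by Gm26917, Lars2, Malat1, Acta1 and Sat1 (5 THC and 43 vehicle cells).

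Of the 9 genes, 6 were at least 2-fold higher in colonocyte-like than in crypt-like cells, and they were the same 6 in both libraries: Aqp8, Aqp4, Car1, Car4, Slc26a3 and S100g. Of the genes with at least 20 UMIs in the compared cells, 10.6% (749 of 7055) reached that level in the THC library and 11.4% (793 of 6928) in the vehicle library. Slc12a2 went the other way in both, where 14.7% (THC) and 17.7% (vehicle) of genes were at least 2-fold lower. The median log2 ratio of colonocyte-like over crypt-like cells was 2.47 over the 9 genes and -0.15 over all genes in the THC library, and 2.11 over the 9 genes and -0.18 over all genes in the vehicle library. Car2 and Cftr stayed within 2-fold. The genes that were high in colonocyte-like cells did not peak in the same colonocyte-like cluster, as follows gene by gene.

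**Figure D1:**
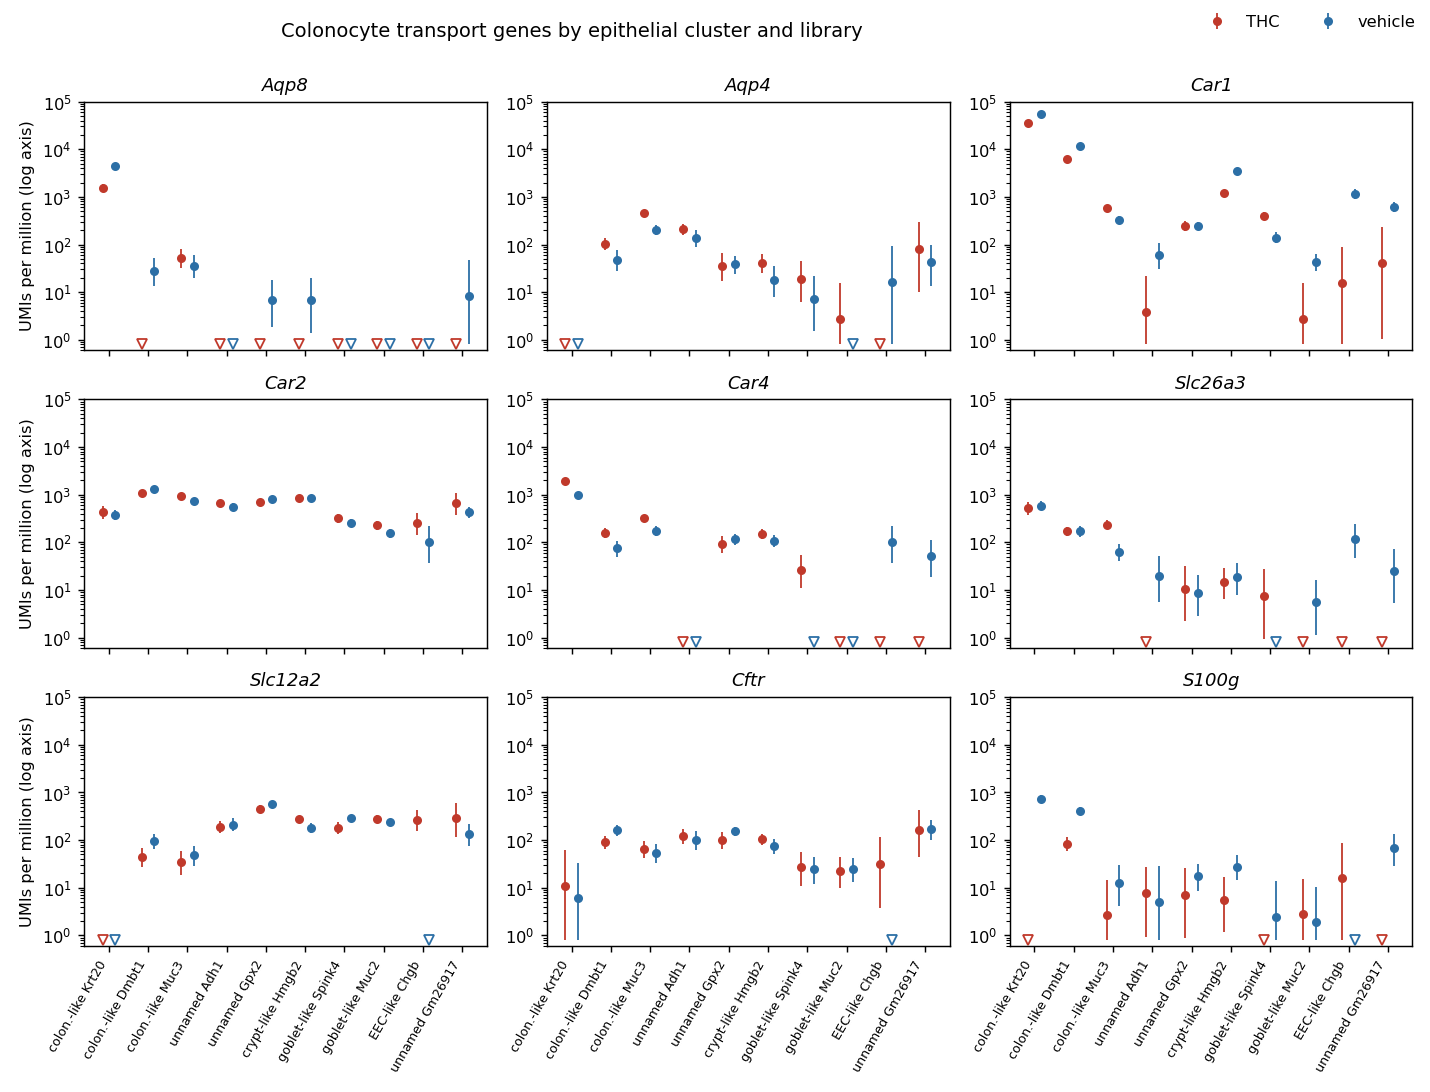
Level of each transport gene (CPM within the cluster, log axis) in the 10 epithelial clusters, THC in red and vehicle in blue, with 95% Poisson intervals for counting error; open triangles at the bottom mark clusters with 0 UMIs, and "colon." and "EEC" stand for colonocyte and enteroendocrine. Aqp8 stands at 1559 (THC) and 4346 (vehicle) CPM in the Krt20-led cells, where Aqp4 and Slc12a2 have 0 UMIs in both libraries.

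Aqp8, a water channel that also passes hydrogen peroxide, had most of its UMIs in the Krt20-led colonocyte-like cells. These cells held 142 of the 162 epithelial Aqp8 UMIs (87.7%) in the THC library and 721 of 753 (95.8%) in the vehicle library. The level there was 1559 CPM (95% interval 1313 to 1837) in the THC library and 4346 (4035 to 4676) in the vehicle library. Cell by cell, the 7 THC cells had 102, 39 and 1 Aqp8 UMIs and 0 in the other 4, and the 10 vehicle cells had 205, 139, 126, 121, 115 and 15 and 0 in the other 4. Both libraries thus mixed cells rich in Aqp8 with cells of the same cluster that had none, and the cells without it were mostly, but not always, the shallow ones: 1 THC cell of 20494 UMIs held 0 Aqp8 beside 1006 Car1 UMIs, and 1 vehicle cell of 22536 UMIs held 0 Aqp8 beside 1224 Car1 UMIs. Outside that cluster Aqp8 was seen in 5 THC cells and 1 vehicle cell of the Muc3-led cluster, with 2 to 8 UMIs in the THC cells and 14 in the vehicle cell. The vehicle library had 2 further cells in the Dmbt1-led cluster (8 and 2 UMIs), 2 in the crypt-like cluster (2 and 1), 1 in the Gpx2-led cluster (4) and 1 in the Gm26917-led cluster (1). The goblet-like cells held 0 Aqp8 UMIs, over 45 THC and 75 vehicle cells.

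Aqp4, the water channel best known from brain astrocytes, had another distribution. It was highest in the Muc3-led colonocyte-like cells, at 459 CPM (394 to 533) in the THC library and 204 (162 to 254) in the vehicle library, and was seen in 15 of 24 THC and 18 of 29 vehicle cells there. The unnamed Adh1-led cells came next, at 212 (159 to 275) in the THC library and 136 (89.3 to 197) in the vehicle library; within the vehicle library these 2 clusters overlapped in their intervals, and within the THC library they did not. The Dmbt1-led cells had 105 (77.3 to 139) in the THC library and 47.1 (27.5 to 75.5) in the vehicle library. The Krt20-led cells held 0 Aqp4 UMIs in either library, at least 13.95-fold below the Muc3-led cells in the THC library and at least 11.3-fold below in the vehicle library when 0 is set to 3 UMIs in a library's cluster.

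Few cells held Aqp8 at all, so a count of cells with both aquaporins had little room. In the THC library 6 cells had at least 3 Aqp8 UMIs, 32 of all 160 had at least 3 Aqp4 UMIs and 0 had both. In the vehicle library 9 cells had at least 3 Aqp8 UMIs, 24 of all 250 had at least 3 Aqp4 UMIs and 0 had both. At 1 UMI or more, 0 of 8 THC and 3 of 13 vehicle cells with Aqp8 also held Aqp4, beside 33.8% of all THC and 20.8% of all vehicle epithelial cells. With so few cells, these counts do not show that the aquaporins kept apart within a cell; the difference described here is that between clusters. Aqp8-rich cells did carry the other surface genes: of the 6 THC cells with at least 3 Aqp8 UMIs, 6 held at least 3 Car4 and 6 at least 3 Slc26a3 UMIs, and of the 9 vehicle cells 7 held that much Car4 and 7 that much Slc26a3. Over all epithelial cells that much Car4 was held by 18.1% (THC) and 11.2% (vehicle), and that much Slc26a3 by 15.6% (THC) and 10.0% (vehicle).

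**Figure D2:**
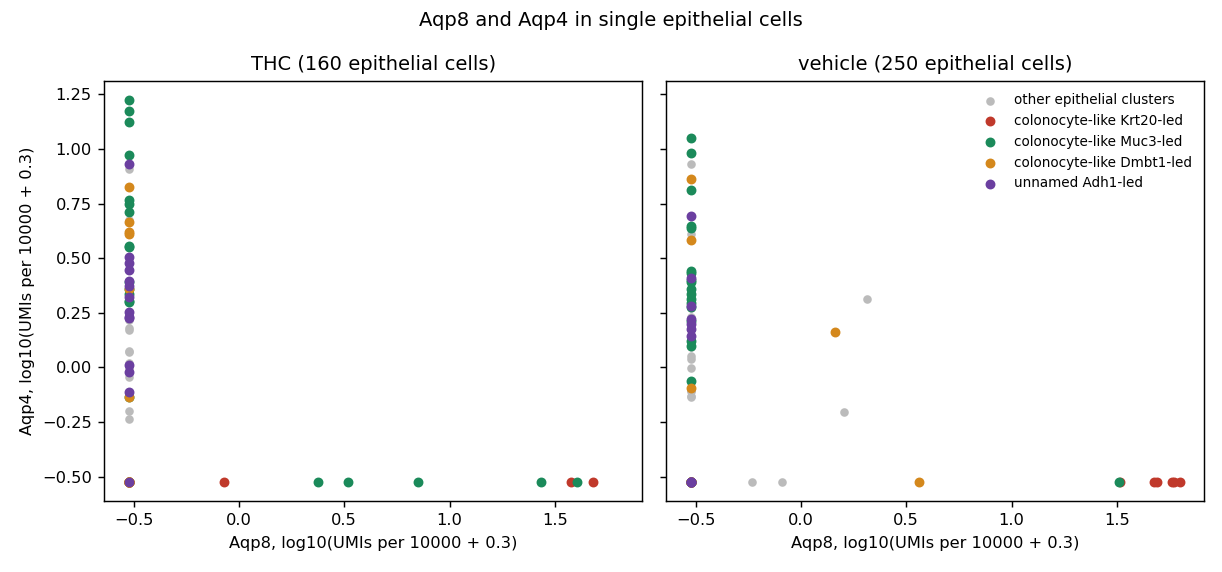
Each point is 1 epithelial cell, with Aqp8 on the x axis and Aqp4 on the y axis, both as log10 of UMIs per 10000 plus 0.3, for THC (left, 160 cells) and vehicle (right, 250 cells); colours mark 4 clusters. In each library 0 cells hold at least 3 UMIs of both genes, the Krt20-led cells lie along the Aqp8 axis and the Muc3-led and Adh1-led cells mostly along the Aqp4 axis.

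Car1, a cytosolic carbonic anhydrase abundant in the colon and in red blood cells, stepped down in summed level from one colonocyte-like cluster to the next. The Krt20-led cells stood at 36022 CPM in the THC library and 55075 in the vehicle library, the Dmbt1-led cells at 6149 (THC) and 11912 (vehicle), and the Muc3-led cells at 591 (THC) and 334 (vehicle). Each step exceeded the counting intervals: the Krt20-led over Dmbt1-led log2 ratio was 2.55 (2.48 to 2.62) in the THC library and 2.21 (2.16 to 2.26) in the vehicle library. The Dmbt1-led over Muc3-led log2 ratio was 3.38 (3.18 to 3.58) in the THC library and 5.16 (4.91 to 5.42) in the vehicle library. Crypt-like cells also carried Car1, at 1224 in the THC library and 3429 in the vehicle library, but 9 of 22 THC and 8 of 20 vehicle cells held any, and the richest THC cell alone held 309 of the 654 UMIs. The 4 erythroid markers had 0 UMIs in the epithelial cells of both libraries.

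Car4, the carbonic anhydrase anchored to the outer face of the apical membrane, was also highest in the Krt20-led cells, at 1932 CPM (1657 to 2239) in the THC library and 983 (838 to 1146) in the vehicle library. Cell by cell, the 7 THC cells had 96, 76, 2, 1 and 1 Car4 UMIs and 0 in the other 2, and the 10 vehicle cells had 61, 27, 18, 15, 14, 11, 11, 3, 2 and 1. Thus 2 THC cells held 172 of the 176 THC UMIs, while the vehicle UMIs were spread over more cells. It differed from Car1 in the next step, because the Muc3-led cells (318 in THC, 173 in vehicle) stood above the Dmbt1-led cells (157 in THC, 74.9 in vehicle). In the Muc3-led cluster it came from few cells, 5 of 24 in the THC library and 2 of 29 in the vehicle library, where 1 vehicle cell held 67 of the 68 UMIs. Those cells overlapped the ones with Aqp8: the 5 THC cells with Aqp8 in that cluster had 14 to 43 Car4 UMIs. The Adh1-led cells held 0 Car4 UMIs in both libraries.

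Car2, the other cytosolic isoenzyme, was spread over the epithelium. In the THC library its level was 1088 CPM in Dmbt1-led, 943 in Muc3-led, 837 in crypt-like, 696 in Gpx2-led and 268 in goblet-like cells. In the vehicle library it was 1345 CPM in Dmbt1-led, 735 in Muc3-led, 861 in crypt-like, 805 in Gpx2-led and 198 in goblet-like cells. In the Krt20-led cells, where the summed levels of Car1 and Car4 peaked, it was lower than in the Dmbt1-led cells, at 428 in the THC library and 380 in the vehicle library. The Krt20-led over Dmbt1-led log2 ratio of Car2 was -1.35 (-1.85 to -0.87) in the THC library and -1.82 (-2.23 to -1.44) in the vehicle library. Colonocyte-like over crypt-like cells differed little, with log2 ratios of 0.20 (0.04 to 0.37) in the THC library and 0.08 (-0.10 to 0.26) in the vehicle library. Under 6 other processing choices these ran from -0.10 to 0.32 (THC) and from -0.16 to 0.25 (vehicle).

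In summed level Slc26a3 was highest in the same cells as Car1 and Car4. The Krt20-led cells had 516 CPM (379 to 686) in the THC library and 591 (480 to 720) in the vehicle library. The Dmbt1-led cells had 170 (THC) and 172 (vehicle), the Muc3-led cells 234 (THC) and 63.8 (vehicle), and the crypt-like cells 14.98 (THC) and 18.3 (vehicle). The Dmbt1-led over Muc3-led log2 ratio was -0.46 (-0.91 to -0.00) in the THC library and 1.43 (0.74 to 2.16) in the vehicle library; of the 89 THC UMIs in the Muc3-led cells, 35 remained when the 5 cells with Aqp8 were left out. The colonocyte-like over crypt-like log2 ratio was 3.94 (2.94 to 5.17) in the THC library and 3.46 (2.45 to 4.69) in the vehicle library.

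Slc12a2 ran opposite to it. The Gpx2-led cells, for which only the crypt markers Ascl2 and Stmn1 counted beside Fabp2, had the highest level of the clusters with over 10 cells in each library, 457 CPM (381 to 543) in the THC library and 575 (515 to 641) in the vehicle library. Goblet-like cells had 235 (THC) and 257 (vehicle), crypt-like cells 273 (THC) and 181 (vehicle), and the Krt20-led cells 0 in both libraries. The colonocyte-like over crypt-like log2 ratio was -2.95 (-3.54 to -2.39) in the THC library and -1.65 (-2.18 to -1.13) in the vehicle library. Of the 25 THC cells with at least 3 Slc26a3 UMIs, 0 also had at least 3 Slc12a2 UMIs, and of the 25 such vehicle cells 2 did, beside 40.0% of all THC and 40.4% of all vehicle epithelial cells with that much Slc12a2.

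Cftr shared the near absence from the Krt20-led cells, with 1 UMI in 7 THC cells and 1 UMI in 10 vehicle cells. It was seen in 29 of 50 THC and 29 of 57 vehicle colonocyte-like cells. Its colonocyte-like over crypt-like log2 ratio stayed within 2-fold, at -0.51 (-1.05 to 0.03) in the THC library and 0.22 (-0.38 to 0.85) in the vehicle library. Under 6 other processing choices the THC value ran from -0.60 to -0.35. The vehicle value ran from -0.48 to 0.54 and kept its sign in 4 of the 6. The Dmbt1-led cells had 89.6 (64.3 to 122) in the THC library and 164 (124 to 211) in the vehicle library, the Gpx2-led cells 99.97 (THC) and 153 (vehicle), the Adh1-led cells 119 (THC) and 100.4 (vehicle), and the goblet-like cells 24.2 (THC) and 24.4 (vehicle).

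S100g was carried by few cells, 14 of 160 in the THC and 29 of 250 in the vehicle library. In the THC library the Krt20-led cells held 0 UMIs in 7 cells, and the Dmbt1-led cells held 38 UMIs in 4 of 19 cells, 29 of them in 1 cell. In the vehicle library the Krt20-led cells held 120 UMIs, as 80, 29, 6 and 5 in 4 of 10 cells, and the Dmbt1-led cells held 150 UMIs in 10 of 18 cells. The colonocyte-like over crypt-like log2 ratio was 2.90 (1.25 to 5.24) in the THC library, on 39 colonocyte-like and 3 crypt-like UMIs, and 3.44 (2.62 to 4.42) in the vehicle library; when each library was clustered on its own, the THC value was -4.50.

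The promoters of 5 of the 9 genes were found in RefSeq's GRCm38.p6 annotation as windows from 250 bases before to 50 bases after the annotated start. Those of Aqp8, Car4, Slc26a3 and S100g are shown because the summed levels of these 4 genes were highest in Krt20-led cells in the vehicle library. For S100g, 1 cell held 80 of the 120 UMIs there, and the THC Krt20-led cells held 0. They lie at chr7:123462044-123462343 (plus strand), chr11:84957504-84957803 (plus), chr12:31437969-31438268 (plus) and chrX:162964550-162964849 (minus). Capitals mark 3 short motifs searched on both strands: TATAAA (the letters of the TATA box), TTTAT (the core of sites for the intestinal factor CDX2) and CAAAG (a half-site of the factor HNF4).
Aqp8: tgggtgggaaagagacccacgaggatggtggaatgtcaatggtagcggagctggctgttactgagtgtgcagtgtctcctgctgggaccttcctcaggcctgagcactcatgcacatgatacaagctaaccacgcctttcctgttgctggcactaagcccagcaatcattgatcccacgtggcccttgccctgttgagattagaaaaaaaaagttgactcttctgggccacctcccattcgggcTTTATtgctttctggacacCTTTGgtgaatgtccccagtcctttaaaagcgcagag
Car4: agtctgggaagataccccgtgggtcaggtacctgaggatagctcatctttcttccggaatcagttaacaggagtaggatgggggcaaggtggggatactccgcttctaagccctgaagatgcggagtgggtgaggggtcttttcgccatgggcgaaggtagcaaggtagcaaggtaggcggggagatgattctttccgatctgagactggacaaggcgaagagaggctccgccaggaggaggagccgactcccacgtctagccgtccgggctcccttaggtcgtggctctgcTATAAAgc
Slc26a3: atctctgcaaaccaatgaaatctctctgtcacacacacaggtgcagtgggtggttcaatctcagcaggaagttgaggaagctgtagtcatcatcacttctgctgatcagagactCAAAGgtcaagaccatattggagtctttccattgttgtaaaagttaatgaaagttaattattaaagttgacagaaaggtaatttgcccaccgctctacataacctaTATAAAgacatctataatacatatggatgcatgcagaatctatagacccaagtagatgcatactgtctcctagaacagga
S100g: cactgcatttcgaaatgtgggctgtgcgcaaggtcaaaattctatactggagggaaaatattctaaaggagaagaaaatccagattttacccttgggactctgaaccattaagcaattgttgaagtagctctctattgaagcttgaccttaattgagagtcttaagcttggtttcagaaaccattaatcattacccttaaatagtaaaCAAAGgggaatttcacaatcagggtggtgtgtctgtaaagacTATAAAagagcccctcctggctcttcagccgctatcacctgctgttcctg
TATAAA was present in 3 of these 4 windows (Car4, Slc26a3 and S100g), against 13.6% of all 32851 promoter windows of the same length. Counted from 1 at the annotated start, its first base lay at -30 in Slc26a3, at 1 in S100g and at 43 in Car4, so it stood before the start in Slc26a3 alone. CAAAG was present in 3 of them (Aqp8, Slc26a3 and S100g), against 53.9% of all windows. TTTAT was present in all 4, against 40.0% of all windows, but in Car4, Slc26a3 and S100g it was read on the reverse strand from within the TATAAA itself, so only the Aqp8 match is a separate stretch. The Cftr window held 0 matches to the 3 motifs and was 71.3% G and C, against a median of 52.7% over all windows. These matches are descriptions of the letters and were not tested against any binding.

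The THC library was then compared with the vehicle library. Over all epithelial cells, 3 of the 9 genes differed by at least 2-fold: Aqp4 was higher in the THC library, and Aqp8 and S100g were lower. Among the 10556 genes with at least 20 UMIs in these cells 3.73% differed by at least 2-fold, 1.09% being higher and 2.64% lower. The median log2 ratio of THC over vehicle was -0.13 over the 9 genes and -0.01 over all 10556. Markers of other cell types in the same cells were mostly sparse: 7 fibroblast markers summed to 2.95 CPM in the THC (3 seen) and 35.4 CPM in the vehicle library (7 seen), and 5 B cell markers to 3.32 CPM (THC, 3 seen) and 41.9 CPM (vehicle, 5 seen). The smooth muscle sum was 426 CPM (THC) and 455 CPM (vehicle), and the part of these cells in the results was not tested.

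Aqp8 had 162 UMIs in 8 of 160 THC cells (59.7 CPM, 50.9 to 69.7) and 753 UMIs in 13 of 250 vehicle cells (232 CPM, 215 to 248.9). Aqp8 was 3.88-fold lower in the THC library, a log2 ratio of -1.96 (-2.21 to -1.71). The share of cells with an Aqp8 UMI was 5.0% (THC) and 5.2% (vehicle), and after every cell was thinned to 1000 UMIs it was 2.5% (THC) and 2.8% (vehicle). Among cells outside the epithelium 0 of 276 THC and 5 of 453 vehicle cells held one. Few epithelial cells held most of the Aqp8 UMIs: 5 vehicle Krt20-led cells with 115 to 205 Aqp8 UMIs, against 2 THC cells with 102 and 39. These vehicle cells held 21496 to 32675 UMIs of all genes, and the 2 THC cells held 27167 and 8174. The raw counts of these cells therefore do not separate the level of Aqp8 from cell depth. Computed as a mean of per-cell levels, which gives shallow cells the same weight, the log2 ratio was -0.43, with cells thinned to 1000 UMIs it was -0.23, and without the richest cell of each library it was -2.93. The Krt20-led cells differed in depth between the libraries, with a median of 8174.0 UMIs in the THC library and 22016.0 in the vehicle library. Their median share of mitochondrial UMIs differed too, at 6.34% (THC) and 11.02% (vehicle). The 5 vehicle cells named above held 8.47% to 13.97% mitochondrial UMIs, and the 2 THC cells held 11.94% and 8.98%. The part of these differences, and of the mitochondrial limit, in the results for Aqp8 and the other genes was not tested.

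S100g had 48 UMIs in 14 of 160 THC cells (17.7 CPM, 13.1 to 23.5) and 308 UMIs in 29 of 250 vehicle cells (94.8 CPM, 84.5 to 106), 5.36-fold lower in the THC library (log2 ratio -2.42, -2.89 to -1.98). In the Krt20-led cells the THC library held 0 and the vehicle library 120 UMIs, at least 21.97-fold lower in the THC library when 0 is set to 3 UMIs. In the Dmbt1-led cells it was 5.01-fold lower (38 THC and 150 vehicle UMIs). Without the richest cell of each library the epithelial log2 ratio was -3.33. The 105814 THC barcodes under 100 UMIs held S100g at 158 CPM, above the 17.7 of the THC epithelial cells. This was not particular to S100g. Aqp8 (111 CPM), Aqp4 (165), Car1 (4228) and Slc26a3 (161) also stood above their THC epithelial levels in those barcodes. Car2, Car4, Slc12a2 and Cftr stood below theirs. The vehicle matrix lists no barcode under 502 UMIs, so the same values could not be had there.

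Aqp4 had 318 UMIs in 54 of 160 THC cells (117 CPM, 105 to 131) and 163 UMIs in 52 of 250 vehicle cells (50.2 CPM, 42.8 to 58.5). It was 2.34-fold higher in the THC library, a log2 ratio of 1.22 (0.95 to 1.51). Its log2 ratio was 1.17 (0.78 to 1.57) in the Muc3-led cells, 1.15 (0.33 to 2.05) in the Dmbt1-led cells and 1.17 (-0.05 to 2.55) in the crypt-like cells, so the THC value was the higher one in each of these clusters, with an interval that reached 0 in the last. In the Adh1-led cells it was 0.64 (-0.05 to 1.36), and in the Gpx2-led cells it was -0.10 (-1.34 to 1.04). When both libraries were given the same mix of clusters, the epithelial log2 ratio was 0.98.

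Car1 had 7155 UMIs (2639 CPM) in THC and 15438 UMIs (4752 CPM) in vehicle cells, 1.80-fold lower in the THC library (log2 ratio -0.85, -0.89 to -0.81). Its direction was not the same in all cells. It was lower in the THC library in Krt20-led cells (-0.61, -0.67 to -0.55), Dmbt1-led cells (-0.95, -1.02 to -0.89) and crypt-like cells (-1.49, -1.62 to -1.35), and higher in Muc3-led cells (0.82, 0.51 to 1.14). In the Muc3-led cells 2 THC cells held 136 of 225 and 1 vehicle cell 66 of 131 Car1 UMIs, and without the cells that held Aqp8 the log2 ratio there was 0.38 (-0.12 to 0.88). It was higher too in the Spink4-led goblet-like cells (1.52, 1.04 to 2.01), but there 1 THC cell held 104 of 105 UMIs. With cells under 10% mitochondrial UMIs only, the epithelial log2 ratio was -0.39.

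Car4 and Slc26a3 were somewhat higher in the THC library over all epithelial cells. Car4 had 482 UMIs (178 CPM) in THC and 383 UMIs (118 CPM) in vehicle cells (log2 ratio 0.59, 0.40 to 0.79), and its log2 ratio was 0.98 (0.66 to 1.29) in Krt20-led, 1.07 (0.41 to 1.77) in Dmbt1-led and 0.87 (0.43 to 1.32) in Muc3-led cells. A few cells carried these values. Without the 2 richest cells of each library the log2 ratio was -3.26 (-5.17 to -1.85) in the Krt20-led cells, on 4 THC and 75 vehicle UMIs, and 0.90 (0.08 to 1.78) in the Dmbt1-led cells. In the Muc3-led cells 1 vehicle cell held 67 of the 68 vehicle UMIs, and without the richest cell of each library the value was 6.33. Over all colonocyte-like cells the Car4 log2 ratio was 0.50, and under 12 other processing choices it ran from -0.13 to 1.01. The median Krt20-led cell had 1.48 (THC) and 7.01 (vehicle) Car4 UMIs per 10000, the opposite direction to the summed level. Slc26a3 had 227 UMIs (83.7 CPM) in THC and 215 UMIs (66.2 CPM) in vehicle cells (log2 ratio 0.34, 0.06 to 0.62). In the Muc3-led cells it was 3.66-fold higher (89 THC and 25 vehicle UMIs), and 1.92-fold higher (35 THC and 20 vehicle UMIs; log2 ratio 0.94, 0.11 to 1.81) without the 5 THC cells and 1 vehicle cell that held Aqp8, while the Krt20-led (-0.20, -0.73 to 0.32) and Dmbt1-led cells (-0.01, -0.51 to 0.49) had intervals that held 0. In the summed Krt20-led cells, then, Aqp8 was lower in the THC library and Slc26a3 differed by less than its counting error, and the direction of Car4 turned on 2 THC cells.

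Car2, Slc12a2 and Cftr showed the smallest differences. Car2 had 1907 UMIs (703 CPM) in THC and 2026 UMIs (624 CPM) in vehicle cells (log2 ratio 0.17, 0.08 to 0.26). Slc12a2 had 527 UMIs (194 CPM) in THC and 762 UMIs (235 CPM) in vehicle cells (log2 ratio -0.27, -0.43 to -0.11). Cftr had 202 UMIs (74.5 CPM) in THC and 265 UMIs (81.6 CPM) in vehicle cells (log2 ratio -0.13, -0.40 to 0.14). Within clusters Slc12a2 was lower in the THC library in Dmbt1-led cells (-1.11, -1.98 to -0.27) and higher in crypt-like cells (0.60, 0.19 to 1.01). Without the 5 vehicle crypt-like cells with fewer than 3 pan-epithelial markers the crypt-like value was 0.35 (-0.05 to 0.76).

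Within the colonocyte-like cells alone, 4 of the 9 genes differed by at least 2-fold, beside 5.41% of 7297 genes (2.91% higher and 2.51% lower). Aqp4 was higher in the THC library (log2 ratio 1.18, 0.83 to 1.54). Aqp8 (-2.22, -2.47 to -1.97), Car1 (-1.12, -1.16 to -1.08) and S100g (-2.84, -3.36 to -2.35) were lower. With barcodes under 10% mitochondrial UMIs the count was 2, Aqp8 and S100g. The smooth muscle marker sum in these cells was 1210 CPM in the THC library and 25.0 in the vehicle library, 6 of 6 markers being seen in the THC and 5 in the vehicle cells; 1 THC cell, marked as a doublet, held 1109 of the 1125 UMIs. Without the barcodes marked as doublets the count of genes past 2-fold was again 4.

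Counted cluster by cluster, with the same minimum of 20 UMIs, the share of all genes past 2-fold was larger in each cluster or class than over the whole epithelium. In Krt20-led cells 2 of 6 measured genes, Aqp8 and S100g, were at least 2-fold lower in the THC library, beside 6.82% of 1702 genes lower, 8.64% higher and 15.5% either way. In Dmbt1-led cells 4 of 8 passed, Aqp4 and Car4 higher and Slc12a2 and S100g lower, beside 5.14% of 4827 genes higher, 3.52% lower and 8.66% either way; Car4 did not pass without the 2 richest cells of each library. In Muc3-led cells Aqp4 and Slc26a3, 2 of 8, were higher, beside 3.36% of 4586 genes higher and 6.3% either way; Slc26a3 did not pass without the cells that held Aqp8. In crypt-like cells Aqp4 was higher and Car1 lower, 2 of 6, beside 3.37% of 6179 genes higher, 6.28% lower and 9.65% either way; Aqp4 (0.92, -0.30 to 2.30) did not pass without the 5 vehicle cells with few pan-epithelial markers. In goblet-like cells Car1 was higher, 1 of 4, beside 2.07% of 7058 genes higher, 2.39% lower and 4.46% either way, through the 1 cell named above. Without the shallow Gm26917-led cells 3 of 9 genes passed over the epithelium, again Aqp4 higher and Aqp8 and S100g lower, beside 1.2% of 10499 genes higher, 2.56% lower and 3.76% either way.

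**Figure D3:**
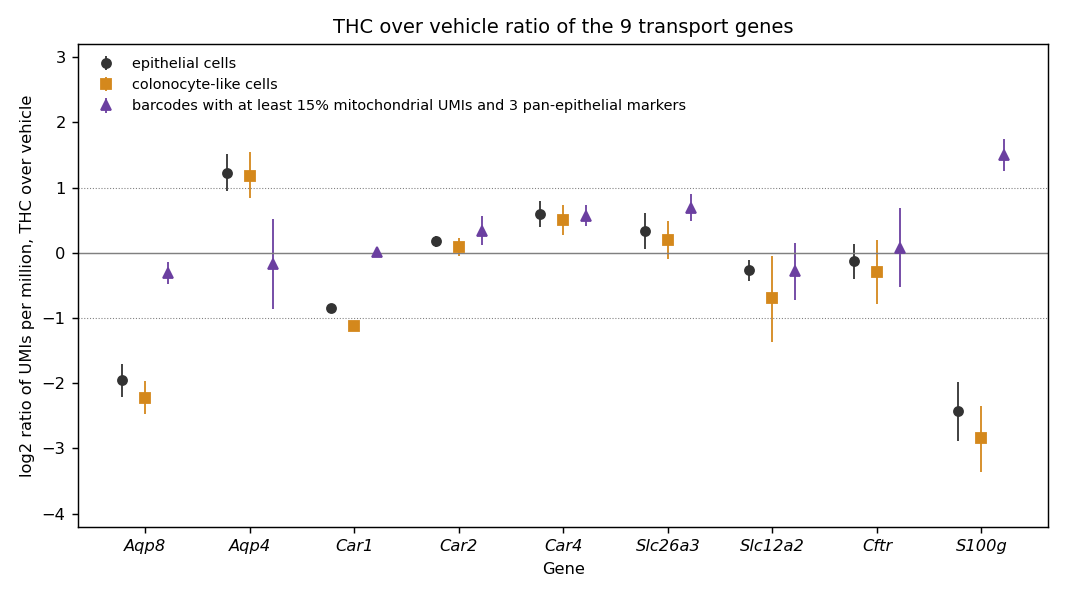
Log2 ratio of CPM in the THC over the vehicle library for the 9 genes, with 95% intervals for counting error, in all epithelial cells (black circles), in colonocyte-like cells (orange squares) and in barcodes over the mitochondrial limit with at least 3 pan-epithelial markers (purple triangles); dotted lines mark 2-fold. Aqp8 and S100g lie below -1 in the kept cells, and over the limit S100g lies at 1.49 and Aqp8 at -0.30.

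The barcodes with 15% or more mitochondrial UMIs gave other ratios for some of the genes. Of them, 168 THC and 199 vehicle barcodes held at least 3 of the 10 pan-epithelial markers, against 160 THC and 250 vehicle kept epithelial cells. They were shallower, with a median of 5153.5 (THC) and 4303.0 (vehicle) UMIs, but more of them held Krt20. It was seen in 45.8% of THC and 38.2% of vehicle barcodes over the limit, against 16.9% (THC) and 12.0% (vehicle) of kept epithelial cells. Krt20 is the only colonocyte marker given here, and it was also among the leading genes of the enteroendocrine-like cells. Aqp8 was seen in 59 THC and 38 vehicle barcodes over the limit, against 8 THC and 13 vehicle kept cells. Levels here are CPM of the UMIs that are not mitochondrial.

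Aqp8 stood at 710 (THC) and 877 (vehicle) CPM over the limit, a log2 ratio of -0.30 (-0.47 to -0.13). Car1 stood at 13234 (THC) and 13111 (vehicle), a log2 ratio of 0.01 (-0.03 to 0.05), and Aqp4 at 48.5 (THC) and 54.5 (vehicle; log2 ratio -0.17, -0.86 to 0.52). The difference in Aqp8 was smaller than in the kept cells, and the intervals for Car1 and Aqp4 held 0. S100g was higher in the THC library over the limit, with 484 THC and 189 vehicle UMIs and a log2 ratio of 1.49 (1.25 to 1.74), but 302 of the 484 THC UMIs came from 1 barcode. Car4 (0.57, 0.41 to 0.73) and Slc26a3 (0.69, 0.49 to 0.90) were higher in the THC library over the limit, as in the kept epithelial cells.

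When these barcodes were added to the kept epithelial cells, 1 of the 9 genes was past 2-fold. Aqp4 had a log2 ratio of 1.01 (0.76 to 1.27), Aqp8 of -0.88 (-1.02 to -0.75), Car1 of -0.41 (-0.43 to -0.38) and S100g of 0.33 (0.15 to 0.51). The sign for S100g changed when these barcodes were added, but 1 THC barcode then held 302 of the 532 THC S100g UMIs. The S100g ratio without that barcode was not computed. The size for Aqp8 changed by more than 1.5 times. Car4 (0.62, 0.50 to 0.75) and Slc26a3 (0.62, 0.45 to 0.78) kept their sign.

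**Figure D4:**
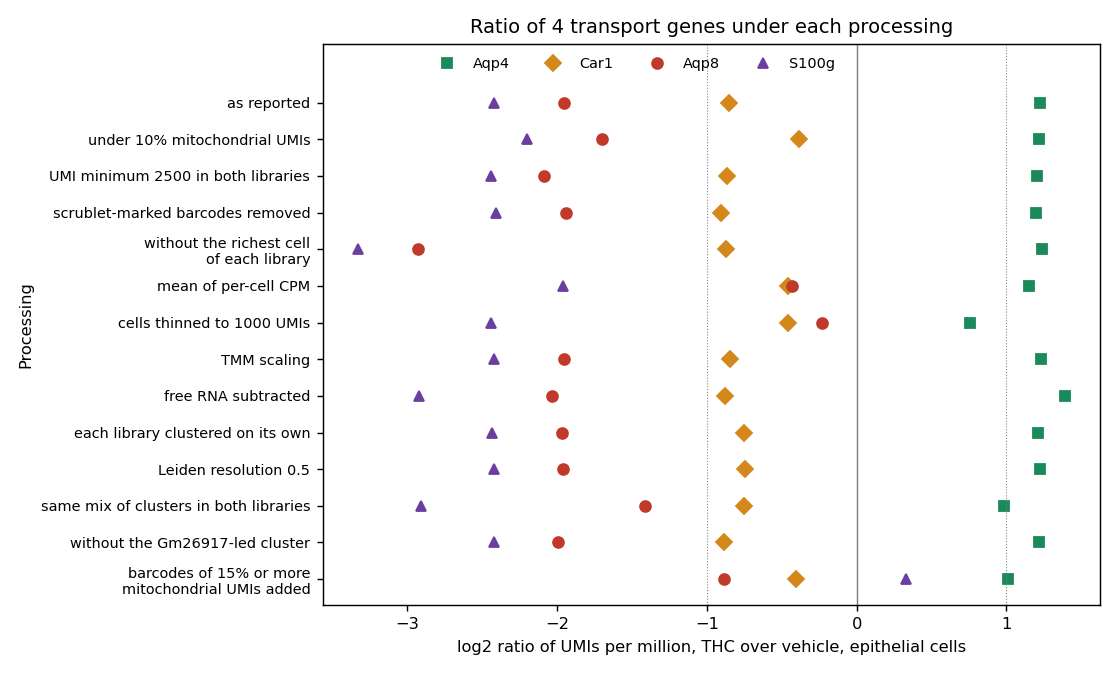
Log2 ratio of THC over vehicle in epithelial cells for Aqp4, Car1, Aqp8 and S100g under each processing choice, listed down the y axis; the solid line marks 0 and the dotted lines 2-fold. Aqp4 stays between 0.76 and 1.39 in all of them, Aqp8 runs between -2.93 and -0.23, and S100g lies at 0.33 when barcodes over the mitochondrial limit are added and at -1.96 or below otherwise. With those barcodes added, 1 barcode holds 302 of the 532 THC S100g UMIs.

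Other genes of colonic transport, 53 genes in 7 lists, mostly stayed within 2-fold between the libraries. In epithelial cells 38 of the 53 had at least 20 UMIs; 2 were at least 2-fold higher in the THC library and 0 were lower, and their median log2 ratio was 0.09. Both belong to apical sodium uptake: Scnn1b, a subunit of the epithelial sodium channel, had 16 THC and 9 vehicle UMIs (log2 ratio 1.09, -0.17 to 2.45), and Slc9a3, the sodium and hydrogen exchanger NHE3, had 17 THC and 9 vehicle UMIs (1.18, -0.07 to 2.53), so the counting interval of each held 0. The remaining 6 of the 8 measured genes of that list stayed within 2-fold, among them Slc26a2, a sulfate transporter (842 THC and 790 vehicle UMIs; 0.35, 0.21 to 0.49), and the scaffold Slc9a3r1 (370 THC and 525 vehicle UMIs; -0.24, -0.44 to -0.05).

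Of the other aquaporins, 2 of 5 were measured: Aqp1 had 258 THC and 374 vehicle UMIs (-0.27, -0.51 to -0.04) and Aqp11 86 THC and 85 vehicle UMIs (0.28, -0.17 to 0.73). Aqp1 was lower in colonocyte-like than in crypt-like cells in both libraries, with log2 ratios of -2.42 (THC) and -1.88 (vehicle), unlike Aqp8 and Aqp4. Of the other carbonic anhydrases 3 of 7 were measured, with Car12 at 91 THC and 117 vehicle UMIs (-0.10, -0.51 to 0.31) and Car9 at 78 THC and 73 vehicle UMIs (0.36, -0.12 to 0.84). All 11 basolateral transporters and potassium channels were measured and 0 passed 2-fold; the sodium pump subunit Atp1b1 had 1794 THC and 2025 vehicle UMIs (0.09, -0.01 to 0.18).

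The calcium list is the one nearest to S100g, and 3 of its 7 genes were measured. The vitamin D receptor Vdr had 490 THC and 578 vehicle UMIs (0.02, -0.15 to 0.20) and the calcium pump Atp2b1 371 THC and 487 vehicle UMIs (-0.13, -0.33 to 0.07). The apical calcium channel Trpv6 fell short of the minimum of 20, with 0 THC and 12 vehicle UMIs, all 12 in 1 cell. All 9 genes of hormonal control were measured and 0 passed 2-fold, with Guca2a, the guanylin precursor, at 1686 THC and 1679 vehicle UMIs (0.27, 0.17 to 0.37) and Hsd11b2, which shields the mineralocorticoid receptor from glucocorticoids, at 606 THC and 905 vehicle UMIs (-0.32, -0.47 to -0.17). The short-chain fatty acid transporters Slc5a8 (291 THC and 298 vehicle UMIs; 0.23, -0.01 to 0.46) and Slc16a1 (271 THC and 215 vehicle UMIs; 0.59, 0.33 to 0.86) made up the measured monocarboxylate genes.

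Genes with the most similar profiles were ranked by Pearson's r of log2(CPM + 10) over 20 profiles, 10 epithelial clusters in 2 libraries, among 6539 genes with at least 100 UMIs. The profiles share libraries and depth, so r is a description. Aqp8 was most like Mal (0.96), Prss30 (0.95) and Tmigd1 (0.94), and Car1 most like Cyp2c55 (0.95), Fa2h (0.94) and Ces2e (0.89). Slc26a3 was most like Ces2e (0.94), Myo18a (0.93) and Coro2a (0.93), and Car4 most like Car1 (0.87), Sult2b1 (0.86) and Myo18a (0.86). Slc26a3 and Car1 thus shared Ces2e, and Slc26a3 and Car4 shared Myo18a, among their 3. Aqp4 went with Plbd1 (0.88), Cela1 (0.86) and Add1 (0.85), and Car2 with Ank (0.92), Hao2 (0.89) and Cyc1 (0.89). Slc12a2 went with Bcat2 (0.94), Pabpc1 (0.93) and Cdc42ep1 (0.91), and Cftr with Edn1 (0.90), Cluh (0.89) and Shmt1 (0.88). S100g had the weakest likeness, to Pparg (0.78), Acads (0.74) and Atp8a1 (0.69). Among the 9 genes themselves, Car1 and Car4 were most alike (0.87) and Slc26a3 and Slc12a2 most unlike (-0.88).

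Outside the epithelium most of the genes had few UMIs or none. Aqp4, Cftr and S100g had 0 UMIs over 276 THC and 453 vehicle cells that were not epithelial, although Aqp4 stood at 165 CPM in the THC barcodes under 100 UMIs. Car1, at 4228 CPM in those barcodes, gave 16.7 CPM in the vehicle cells that were not epithelial; a cluster value below that level, such as the 2.79 CPM of the THC Muc2-led goblet-like cells, was read as background. The THC value outside the epithelium, 251, came almost wholly from 1 cell. Car4 had 12 THC and 12 vehicle UMIs, of which 12 THC and 10 vehicle UMIs lay in an endothelial-like cluster led by Fabp4, Igfbp7, Ly6c1, Plvap and Ier3. Slc12a2 had 70 UMIs in 36 of 66 THC and 58 UMIs in 38 of 89 vehicle smooth muscle-like cells, a cell type in which this cotransporter is known.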

How the data were processed

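Colon cells of 1 THC and 1 vehicle library were measured with the 10x Genomics 5' kit. The deposited values are raw UMI counts, made by the authors with Cell Ranger 3.0.2 per the file headers; bcl2fastq and Seurat stand in the submitters' processing notes as well. The genome build was not given in the sources used here, and none is assumed. The deposited THC matrix holds 737280 barcodes, 106628 of them with a UMI, and the vehicle matrix 973, the lowest with 502 UMIs, so the vehicle barcodes had passed a cell call and the same minimum of 1000 UMIs was set for both.

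Cells were clustered in scanpy 1.11.5 (2000 variable genes without the 9 genes and the 53 other transport genes, 30 principal components, 15 neighbours, Leiden resolution 1), first all cells and then the epithelial cells. Clusters were named from marker lists when at least 3 markers counted; the scoring was set after seeing the data. Counts were summed by cluster and library and divided by the summed UMIs. Intervals are exact Poisson or, for ratios, exact conditional ones at 95%, and PCR or droplet effects are not in them. No test was run, since each treatment had 1 library. A gene past 2-fold needed at least 20 UMIs. Scrublet marked 2 THC and 2 vehicle barcodes as doublets, which were kept and removed as an alternative; the TMM alternative used edgeR 4.0.16.

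The 9 genes and the lists were chosen with earlier results of these data known. Named were all 9 genes, other transport genes with at least 20 UMIs and 2-fold, the 2 of each list with the most UMIs, the 3 most alike genes and 5 leading genes per cluster; some genes that this rule names are not reported here.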

Additional observations from a re-analysis of the deposited data

Results flagged for a closer look

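Car1 went in opposite directions between the libraries within the colonocyte-like cells. The log2 ratio of THC over vehicle was 0.82 (0.51 to 1.14) in the Muc3-led cells, and it was -0.95 (-1.02 to -0.89) in the Dmbt1-led and -0.61 (-0.67 to -0.55) in the Krt20-led cells. In the Muc3-led cells 2 of 24 THC cells held 136 of 225 and 1 of 29 vehicle cells held 66 of 131 Car1 UMIs, and without the cells that held Aqp8 the log2 ratio there was 0.38 (-0.12 to 0.88), an interval that held 0. The difference between clusters was not tested, because each treatment had 1 library.

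The barcodes left out for 15% or more mitochondrial UMIs held more Aqp8 than the kept cells did in the THC library. Over all such barcodes there were 499 Aqp8 UMIs in 60 of 192 THC barcodes and 676 in 38 of 208 vehicle barcodes, against 162 in the kept THC and 753 in the kept vehicle epithelial cells. S100g had 484 UMIs in 21 THC and 189 UMIs in 21 vehicle barcodes over the limit, against 48 in the kept THC and 308 in the kept vehicle epithelial cells, and 1 barcode held 62.4% of the 484.

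One THC cell in an endothelial-like cluster led by Fabp4, Igfbp7, Ly6c1, Plvap and Ier3 held 548 Car1 UMIs, of 20971 UMIs in all. The same cell held 192 Krt8, 16 Epcam and 15 Car2 UMIs beside 23 Plvap, 5 Cdh5 and 4 Pecam1 UMIs, and was not marked as a doublet. The other 4 THC cells of that cluster held 0 Car1 UMIs, and the 7 vehicle cells held 1 in all.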

How the results depend on the processing

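The count of the 9 genes past 2-fold in epithelial cells was 3. It was 1 after thinning to 1000 UMIs, 1 with barcodes of 15% or more mitochondrial UMIs added, and 5 at a 1.5-fold limit; the cause was not tested. In colonocyte-like cells it was 4, and it was 2 under 10% mitochondrial UMIs and 0 after thinning. Thinning left few UMIs of most genes. The S100g log2 ratio changed sign under 2 alternatives: 0.33 in epithelial cells with the barcodes over the limit added, and -4.50 for colonocyte-like over crypt-like THC cells when each library was clustered on its own. In the first of these, 1 barcode held 302 of the 532 THC S100g UMIs. Of 396 values of single genes under the alternatives, 300 stayed inside the counting interval and 381 kept their sign; Car4 in Krt20-led cells did not, at -3.26 without the 2 richest cells of each library. The same mix of clusters, the removal of the Gm26917-led cluster, the added barcodes over the limit, a minimum of 3 pan-epithelial markers for crypt-like cells and, within clusters, the removal of the 1 or 2 richest cells or of cells with Aqp8 were chosen after seeing the data. No paired analysis was possible because each treatment had 1 library, and for the same reason no replicate could be left out. Counting intervals were wider for genes with few UMIs, as for S100g with 48 THC UMIs.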
